A study of Mus musculus with 16 samples.

Results

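The genes described here are 10 of the 32285 genes counted in single-nucleus RNA-seq of mouse hippocampus: the NF-kB subunits *Nfkb1*, *Nfkb2*, *Rel*, *Rela* and *Relb*, and the feedback genes and targets *Nfkbia*, *Nfkbiz*, *Bcl3*, *Tnfaip3* and *Birc3*. They were chosen by symbol, with no threshold on a measured value, though with earlier results of these data known. All 10 symbols were found once in each file. On mm10 (GENCODE vM21), *Nfkb1* spans chr3:135584655-135691547, the others being at *Nfkb2* chr19:46304320-46312385, *Rel* chr11:23736847-23770970, *Rela* chr19:5637483-5648130, *Relb* chr7:19606217-19629438, *Nfkbia* chr12:55489410-55492647, *Nfkbiz* chr16:55811375-55838899, *Bcl3* chr7:19808462-19822770, *Tnfaip3* chr10:19000910-19015657 and *Birc3* chr9:7848699-7873186, all as protein-coding genes. The question was whether DMXAA, an agonist of mouse STING, moved NF-kB genes in mice that cannot answer type I interferon. Of the 16 male mice, 1 per library, 8 were C57BL/6 wild type (WT) aged 2 months and 23 days. The other 8 were *Ifnar1*-/- (KO), lacking a chain of the type I interferon receptor, and were aged 3 months and 3 days. In each genotype 4 mice received vehicle and 4 received DMXAA, by repeated intraperitoneal injection with tissue taken a day after the last, per the methods of the study. Genotype therefore cannot be told apart from age or from cohort. The labels give no promoter or cell type for the knockout and name no other allele or agent in any of the 4 groups.

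NF-kB factors are dimers of subunits that share a DNA-binding Rel homology domain. In a resting cell, IkB proteins such as the product of *Nfkbia* hold most dimers in the cytoplasm. Receptors such as Toll-like, interleukin-1 and TNF receptors, and STING through its kinases, lead to the breakdown of IkB, and the freed dimers enter the nucleus and bind kappaB sites. Among the genes they raise are their own inhibitors, *Nfkbia* and *Tnfaip3*, so levels of these transcripts are often read as a trace of the pathway. STING also activates IRF3 and thereby type I interferon, whose receptor acts on genes with an interferon-stimulated response element (ISRE).

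The promoters were searched for matches to the kappaB and ISRE motifs. Of the 10 genes, 7 had an entry in the RefSeq promoter table on GRCm38.p6, which spans 250 bases before each start and a short stretch after it, and *Nfkb1*, *Relb* and *Nfkbiz* had none. A match to the degenerate kappaB consensus on either strand was found for 4 of the 7 genes (*Nfkb2*, *Rel*, *Nfkbia* and *Tnfaip3*), against 8.23% of 27025 genes in the table and 7.25% of its 32851 promoters. The ISRE core GAAANNGAAA, searched on both strands, was found for 0 of the 7, against 3.46% of genes and 2.98% of promoters. Of the 10 interferon reference genes with an entry, 6 had it and 2 had a kappaB match. The 150 bases before the start are shown for the 4 genes with a kappaB match and for 2 interferon genes, *Ifit1* and *Isg15*, with kappaB matches in capitals for the former and ISRE matches, which can overlap, in capitals for the latter. A match is a description of the letters in this window and not a site. The windows of *Nfkb2* and *Tnfaip3* lie inside the gene spans given above, as GENCODE places their outermost start further upstream. Windows are on the strand named. *Nfkb2* is chr19:46304587-46304736, plus strand, *Rel* chr11:23770970-23771119, minus strand, *Nfkbia* chr12:55492648-55492797, minus strand, *Tnfaip3* chr10:19015411-19015560, minus strand, *Ifit1* chr19:34640739-34640888, plus strand, and *Isg15* chr4:156200819-156200968, minus strand.
Nfkb2: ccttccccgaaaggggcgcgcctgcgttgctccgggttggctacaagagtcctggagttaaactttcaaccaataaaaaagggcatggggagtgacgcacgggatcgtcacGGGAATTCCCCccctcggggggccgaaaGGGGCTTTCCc
Rel: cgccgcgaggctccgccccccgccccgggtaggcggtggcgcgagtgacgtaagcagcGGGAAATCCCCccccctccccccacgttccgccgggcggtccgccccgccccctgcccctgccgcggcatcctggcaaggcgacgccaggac
Nfkbia: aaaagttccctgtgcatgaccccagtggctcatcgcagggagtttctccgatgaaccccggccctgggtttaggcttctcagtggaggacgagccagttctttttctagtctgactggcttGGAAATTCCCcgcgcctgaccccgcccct
Tnfaip3: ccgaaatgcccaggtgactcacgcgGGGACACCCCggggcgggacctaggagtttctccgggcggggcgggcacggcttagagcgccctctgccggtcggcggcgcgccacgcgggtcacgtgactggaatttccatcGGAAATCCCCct
Ifit1: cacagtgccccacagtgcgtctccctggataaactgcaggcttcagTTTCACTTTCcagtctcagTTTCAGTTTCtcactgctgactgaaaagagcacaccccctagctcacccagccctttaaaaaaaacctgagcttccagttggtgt
Isg15: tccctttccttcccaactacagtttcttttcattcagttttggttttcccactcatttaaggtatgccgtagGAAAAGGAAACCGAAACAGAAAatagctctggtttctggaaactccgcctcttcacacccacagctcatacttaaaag

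The depth behind these values was 32506037 to 51055114 UMIs per library over 5163 to 9237 kept nuclei. A UMI is a counted RNA molecule. Nuclei were clustered and named from marker genes into 13 classes, so class names such as microglia are rebuilt here and stand for nuclei like those cells, and 12.192% of kept nuclei stayed unnamed. Libraries shared 12 to 41 barcodes in pairs. UMIs were summed per library and class, and levels are given as UMIs per 1000000 UMIs of the class, scaled by the TMM factors of the test (normalised CPM). They are not divided by gene length, so they compare libraries and classes for 1 gene and not genes with each other. The peripheral leukocyte, microglia and border macrophage marker lists are given below where they move with a result.

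One library stood apart before any member was considered. Among 5977 genes on which the KO libraries and the other 7 WT libraries did not overlap in excitatory neurons, WT DMXAA replicate 3 lay within the KO range for 74.5% and within the WT range for 4.37%. In microglia the shares were 41.9% and 20.9% of 1082 genes. Its *Ifnar1* level over all nuclei depended on the scaling. It was 16.3 normalised CPM against 15.5 to 17.2 in the other WT libraries and 11.9 to 13.4 in KO libraries. Without the scaling factors it was 13.7 CPM, below the other WT libraries at 17.0 to 19.5 and above KO libraries at 10.6 to 12.8. Its microglia held the interferon reference genes at a sum of 1055, against 1377 to 3195 in the other WT DMXAA libraries and 212 to 318 in WT vehicle. The part of *Ifnar1* deleted in the mice is not given in the sources used here, so its remaining UMIs in KO check the labels only in part. The microglia of the library also held more excitatory neuron markers, 563 normalised CPM in sum against 147 to 199 in the other 3. Their microglia markers were lower, 5972 in sum against 8220 to 9812. They held more peripheral leukocyte markers as well, 823 against 40.6 to 60.1. These included 228 UMIs of *S100a8* and 457 of *S100a9*, genes typical of neutrophils, against at most 1 of each in every other library. Several results that rest on this library are given with and without it.

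At rest, the members fell into distinct patterns across classes of WT vehicle nuclei. *Nfkb1*, which encodes the p105 precursor of p50, was found in every class. It was highest in microglia at 347 ± 10.5 normalised CPM (SD, n = 4) and in border macrophages at 340 ± 94.6 (n = 4), whose ranges overlapped, and the next classes, from ependymal at 198 ± 33.5 (n = 2) to oligodendrocyte precursors at 119 ± 13.8 (n = 4), each overlapped their neighbour. Below them inhibitory neurons at 84.3 ± 8.73, excitatory neurons at 69.8 ± 3.82 and oligodendrocytes at 58.4 ± 6.20 were separate from one another. *Rel*, the c-Rel subunit of lymphoid and myeloid cells, was more confined: 154 ± 43.9 in border macrophages and 128 ± 16.6 in microglia, whose ranges overlapped, were apart from fibroblasts at 29.6 ± 7.79, and those from the remaining 6 classes with over 30 UMIs, at 5.23 to 12.9.

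*Rela*, encoding p65, and *Relb*, the partner of p52, were found in most classes. *Rela* ran from 59.9 ± 31.9 in endothelial nuclei and 37.1 ± 10.9 in microglia to 10.2 ± 1.97 in excitatory neurons, with overlap between all neighbours but microglia and choroid plexus. *Relb* ran from 54.8 ± 45.4 in border macrophages and 31.1 ± 10.0 in microglia to 3.17 ± 1.59 in inhibitory neurons, each class overlapping the next. *Nfkb2*, encoding the p100 precursor of p52, was at 11.6 ± 4.95 in microglia, 7.43 ± 0.934 in inhibitory and 7.19 ± 0.914 in excitatory neurons, which overlapped. Among the feedback genes, *Nfkbia* was at 303 ± 186 in endothelial nuclei (n = 3), then at 57.7 ± 22.2 in border macrophages and at 2.56 ± 0.660 in excitatory neurons. *Tnfaip3*, the A20 ubiquitin-editing inhibitor of the pathway, was at 21.0 ± 6.23 in microglia and at 1.30 ± 0.285 in excitatory neurons, which did not overlap. *Birc3*, the ubiquitin ligase cIAP2, was at 150 ± 83.0 in border macrophages, 58.5 ± 6.75 in microglia and 0.584 ± 0.307 in excitatory neurons. *Nfkbiz*, encoding the nuclear IkB zeta, led in border macrophages at 79.4 ± 37.6, and *Bcl3*, another nuclear IkB protein, passed 30 UMIs only in fibroblasts, at 8.15 ± 2.17, and in microglia, at 1.47 ± 0.0838, which is 1 UMI in each of the 4 libraries.

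**Figure D1:**
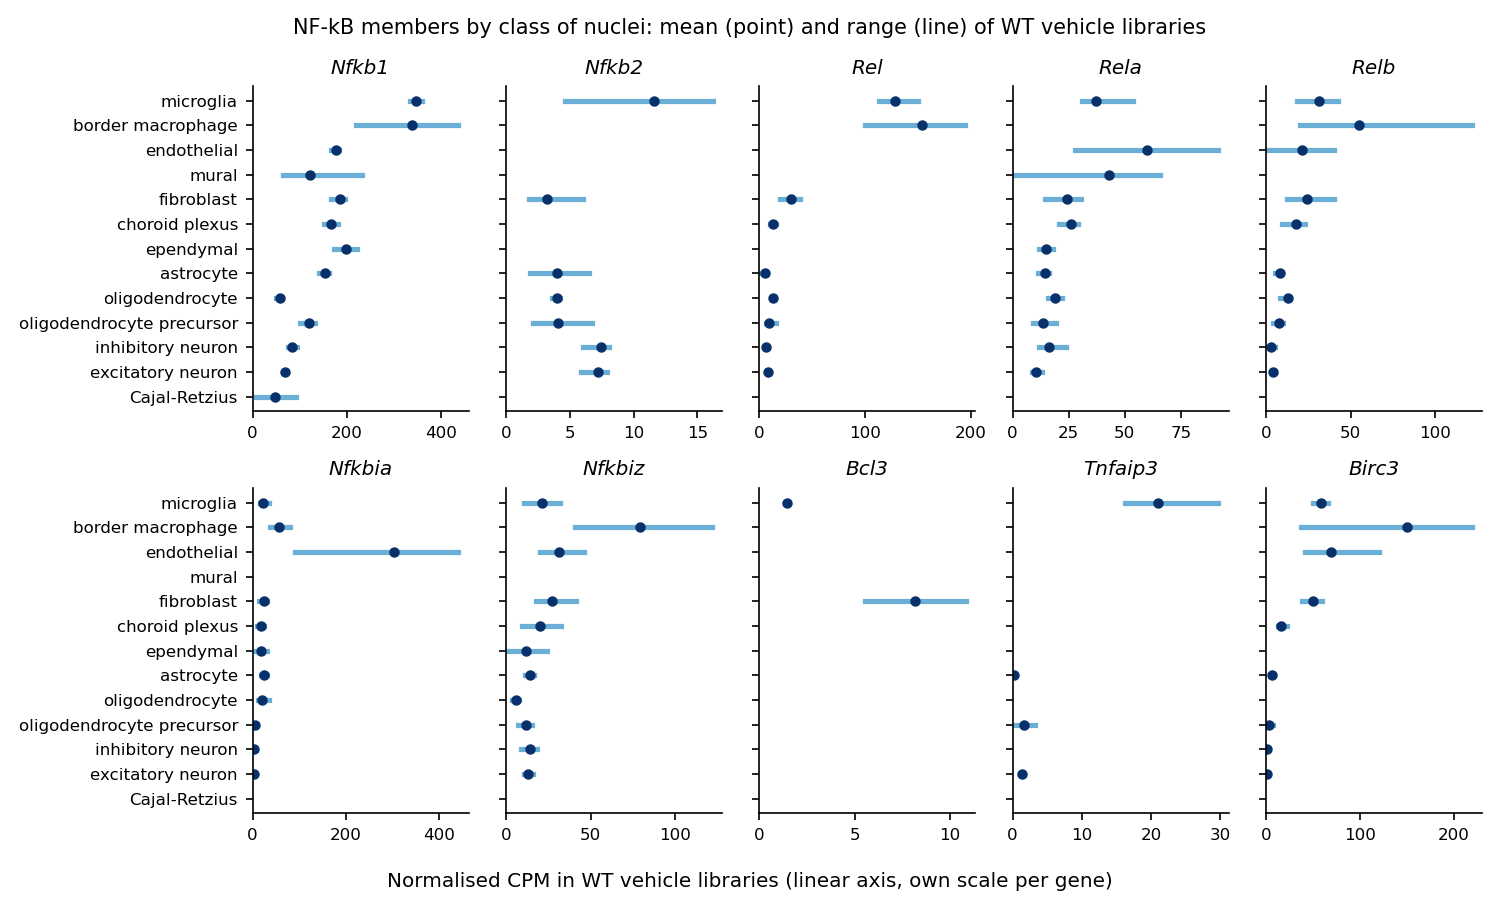
Normalised CPM (linear axis, own scale per gene) of the 10 members in the classes where they had over 30 UMIs, as the mean (point) and range (line) of the WT vehicle libraries. *Nfkb1* and *Rel* have their highest means in microglia and border macrophages, *Birc3* in border macrophages (150), *Nfkbia* in endothelial nuclei (303) and *Bcl3* in fibroblasts (8.15).

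By the Pearson correlation of mean log2 CPM over the 13 classes, among 16093 genes, those most like *Nfkb1* were *Pi4k2a* (r = 0.912), *Etv6* and *Snx13*. The closest to *Rel* were *Kbtbd2* (r = 0.967), *Myo1f* and *Cmtm7*, to *Tnfaip3* *Gm45606* (r = 0.986), *Casp1* and *Gm13814*, and to *Birc3* *Il10rb* (r = 0.973), *Fhod1* and *Renbp*. For *Nfkb2* they were *Pwp2* (r = 0.953), *Twistnb* and *Abcb6*, and for *Rela* *Rnf167* (r = 0.958), *Timm10b* and *Rpl36*. Among those for *Relb* were *Lsm14a* (r = 0.974) and *Fcho2*. For *Nfkbia* they were *Glmp* (r = 0.965), *Ech1* and *Zfyve21*, and for *Nfkbiz* *Zbtb46* (r = 0.958), *Rnft1* and *Kmo*. These coefficients describe 13 points that share libraries and rest on few UMIs in the small classes.

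DMXAA left no member past the test in either genotype. A gene was called where edgeR's quasi-likelihood F test gave a Benjamini-Hochberg adjusted p under 0.05 over all genes of the class and an absolute log2 change over 0.1. In WT, 0 of 58 tests of 9 members in the named classes were called, against 0.312% of 97603 tests of all genes. Of the 58, 3 had an unadjusted p under 0.05 (5.17%, against 6.14% of all genes), the median log2 change was -0.02, and the lowest adjusted p was 0.418. In KO, 0 of 59 were called, as were 0% of all genes in the named classes, in microglia and over all nuclei. Of the 59, 3 had an unadjusted p under 0.05 (5.08%, against 5.18%), with a median of -0.02 and a lowest adjusted p of 0.743. The interaction, which tests whether the DMXAA effect differed between genotypes, called 0 of 55 member tests, against 0.0199% of all, with 2 at an unadjusted p under 0.05. Over all nuclei together, where all 10 members passed the filter on low counts, none was called in WT, KO or the interaction, against 0.487%, 0% and 0.0547% of 20118 genes. DESeq2 and limma-voom also called 0 members in each of the 3 contrasts. The classes tested were not the same in the 2 genotypes. Border macrophages had enough nuclei for a test in WT only, and endothelial, mural and ependymal nuclei in KO only. None of these classes entered the interaction, and the effect of DMXAA in KO border macrophages was not tested.

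These counts leave room for changes of moderate size. The 95% interval of the log2 change lay within 1 of 0 for 38 of the 58 WT tests and for 36 of the 59 KO tests, so both a doubling and a halving lay outside the interval there, and at least 1 of them inside it for the others. Without WT DMXAA replicate 3 more genes were called in general, 1.75% of all tests in WT, 0.2% in KO and 0.12% in the interaction. No member was among them, in 54, 57 and 51 tests. In microglia alone 8.64% of genes were then called in WT and 1.05% in KO, again with no member. The members at an unadjusted p under 0.05 were then 4 in WT (7.41%, against 13.8% of all genes) and 7 in KO (12.3%, against 12.3%), and the lowest adjusted p fell to 0.15 in WT and 0.102 in KO. The interferon reference genes, measured in the same libraries, moved by far more: 27 of their 60 WT class tests were called, all higher, with a median log2 change of 1.89, against 0 of 58 and a median of 0.01 in KO.

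**Figure D2:**
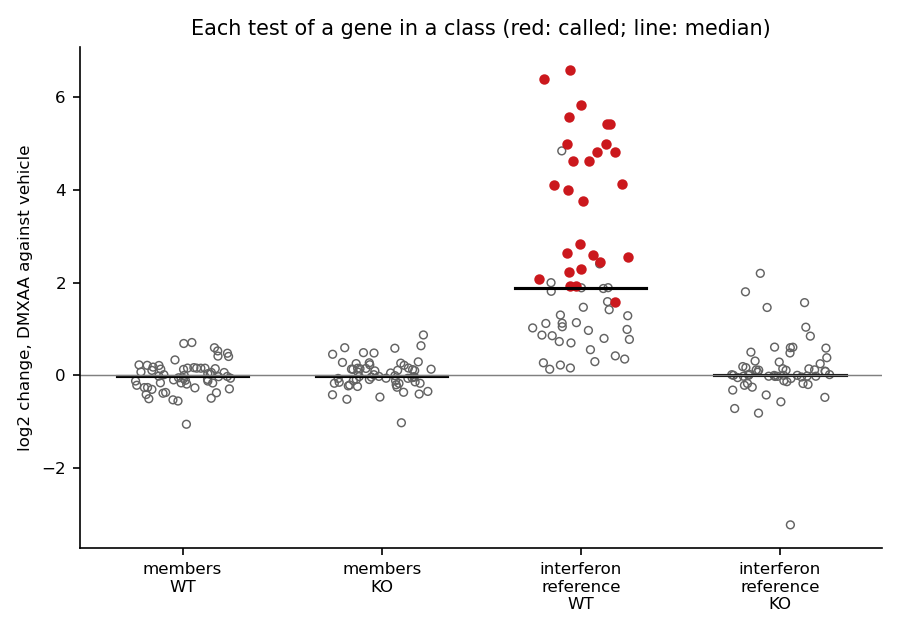
Log2 change of DMXAA against vehicle for each test of a gene in a named class, for the 9 members tested in a class and the 12 interferon reference genes in WT and KO. Red points are called and the line is the median. Member medians are at -0.02 in WT and in KO with no red point, and the interferon genes in WT have a median of 1.89 with 27 red points.

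Microglia held the most genes called in WT of the named classes, so the members were examined there library by library. The microglia of the groups lay largely in different sub-clusters. One held 72.4% to 79.2% of microglia and border macrophages in WT vehicle libraries and 78% to 87.4% in KO libraries, against 0.5% to 13.6% in WT DMXAA. Another, led by interferon-induced and mitochondrial genes, held 79.2% to 91.8% in WT DMXAA replicates 1, 2 and 4 and 10.7% to 20% in WT vehicle. Replicate 3 had no nucleus in it and 94.9% in one where *Camk2a*, an excitatory neuron marker, was enriched. Of all microglial genes, 2.05% were called in WT and 0.111% in the interaction. *Irf7* went from 5 UMIs in WT vehicle to 180 in WT DMXAA, a ratio of 29.8 with a 95% counting interval of 12.5 to 92.9, and had 0 UMIs in both KO groups.

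Of the subunits, *Nfkb1* in WT microglia was at 349.6, 343, 359 and 335 normalised CPM with vehicle and at 382, 345, 441 and 366 with DMXAA. The groups overlapped by replicate 2 of the treated libraries, and the highest value came from WT DMXAA replicate 3. In KO microglia *Nfkb1* was at 403, 423, 366 and 396 with vehicle and at 452, 483, 433 and 469.5 with DMXAA. Each treated KO library was above each KO control, a separation shared by 5.4% of all genes in KO microglia. The log2 change was 0.15 ± 0.09 (SE) in WT and 0.23 ± 0.09 in KO (unadjusted p = 0.021, adjusted p = 0.904 by edgeR), and the interaction was -0.07 ± 0.13. The difference in KO thus passed no correction for the genes tested. *Rel* in WT was at 117, 113, 132 and 149.8 with vehicle and 138, 130.4, 106 and 128 with DMXAA, with a log2 change of -0.02 ± 0.17. In KO it was at 78.0, 81.5, 87.7 and 83.4 with vehicle and at 109, 73.1, 106 and 62.5 with DMXAA, a change of 0.10 ± 0.19, and the treated libraries lay on both sides of the controls.

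*Rela* in microglia was at 31.9, 32.2, 53.5 and 31.0 in WT vehicle and at 29.4, 14.5, 26.6 and 42.4 in WT DMXAA, with a log2 change of -0.38 ± 0.29. In KO it was at 56.5, 31.6, 49.6 and 30.1 with vehicle and at 57.2, 46.5, 54.6 and 45.4 with DMXAA, a change of 0.29 ± 0.30, and the groups overlapped in both genotypes. *Relb* had a WT change of 0.13 ± 0.28 and a KO change of 0.59 ± 0.31 (unadjusted p = 0.076). Its KO libraries were at 35.0, 26.3, 22.9 and 25.5 with vehicle and at 26.0, 31.0, 54.6 and 47.3 with DMXAA, so that 2 treated libraries were above every control. *Nfkb2* had 32 UMIs in WT vehicle microglia and 34 in WT DMXAA, and 12 and 11 in KO, ratios of 0.879 (0.526 to 1.47) and 0.837 (0.334 to 2.07) with counting error only, and it did not pass the filter for a test in this class.

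No feedback gene passed the test in microglia. *Nfkbia*, the main IkB inhibitor, was at 16.7, 16.8, 23.8 and 35.1 in WT vehicle and at 25.6, 50.7, 22.3 and 36.1 in WT DMXAA, a log2 change of 0.53 ± 0.30 (interval -0.10 to 1.16, unadjusted p = 0.092). Without WT DMXAA replicate 3, the lowest treated library, the change was 0.68 ± 0.29 (unadjusted p = 0.023, adjusted p = 0.154 by edgeR). In KO *Nfkbia* was at 18.8, 15.8, 22.9 and 13.9 with vehicle and at 18.2, 26.6, 19.4 and 18.9 with DMXAA, a change of 0.22 ± 0.36. *Nfkbiz* was at 31.9, 10.7, 28.2 and 14.8 in WT vehicle and at 32.0, 14.5, 39.3 and 52.3 in WT DMXAA, a change of 0.71 ± 0.37, and the groups overlapped. In KO its change was -0.26 ± 0.38, and the interaction of 0.97 ± 0.53 had an adjusted p of 0.605 by edgeR. *Tnfaip3*, whose product trims ubiquitin chains to switch the pathway off, had a log2 change of -0.07 ± 0.33 in WT, with libraries at 21.3, 16.8, 29.7 and 16.2 against 11.5, 29.0, 17.0 and 22.4. In KO the value was 0.12 ± 0.35. *Birc3* was at 50.2, 56.7, 60.9 and 66.1 in WT vehicle and at 75.5, 62.3, 82.9 and 51.1 in WT DMXAA, a change of 0.23 ± 0.19, with -0.01 ± 0.21 in KO.

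*Bcl3* was the member with the largest ratio in microglia, from few molecules. Each WT vehicle library held 1 UMI of *Bcl3* in microglia, and the WT DMXAA libraries held 10, 8, 4 and 4. That is 4 against 26 UMIs, a ratio of 5.38 with a 95% counting interval of 1.87 to 21.2. In KO the libraries held 1, 1, 1 and 0 UMIs with vehicle and 4, 1, 1 and 4 with DMXAA, 3 against 10 in sum, a ratio of 3.04 with an interval of 0.783 to 17.2. The intervals cover counting error only, and a KO ratio of 1 lay inside its interval. The gene did not pass the filter on low counts in microglia, so it is outside the counts above. With no filter the WT log2 change was 2.34 ± 0.78 (unadjusted p = 0.0031, adjusted p = 0.179 by edgeR), the KO change 1.48 ± 0.95 (adjusted p = 0.878) and the interaction 0.86 ± 1.32 (adjusted p = 1.0). The border macrophage markers in these microglia were at 237 to 310 normalised CPM in sum in WT vehicle and 233 to 319 in WT DMXAA. The peripheral leukocyte markers were at 7.66 to 108 in WT vehicle and 40.6 to 823 in WT DMXAA. The 108 is WT vehicle replicate 3, where the listed gene *Skap1* alone gave 78.7 on 53 UMIs. *Skap1* was also among the top genes of an unnamed cluster whose best match was excitatory neurons, so the sum does not measure leukocytes alone. The part of these markers in the *Bcl3* counts was not tested.

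**Figure D3:**
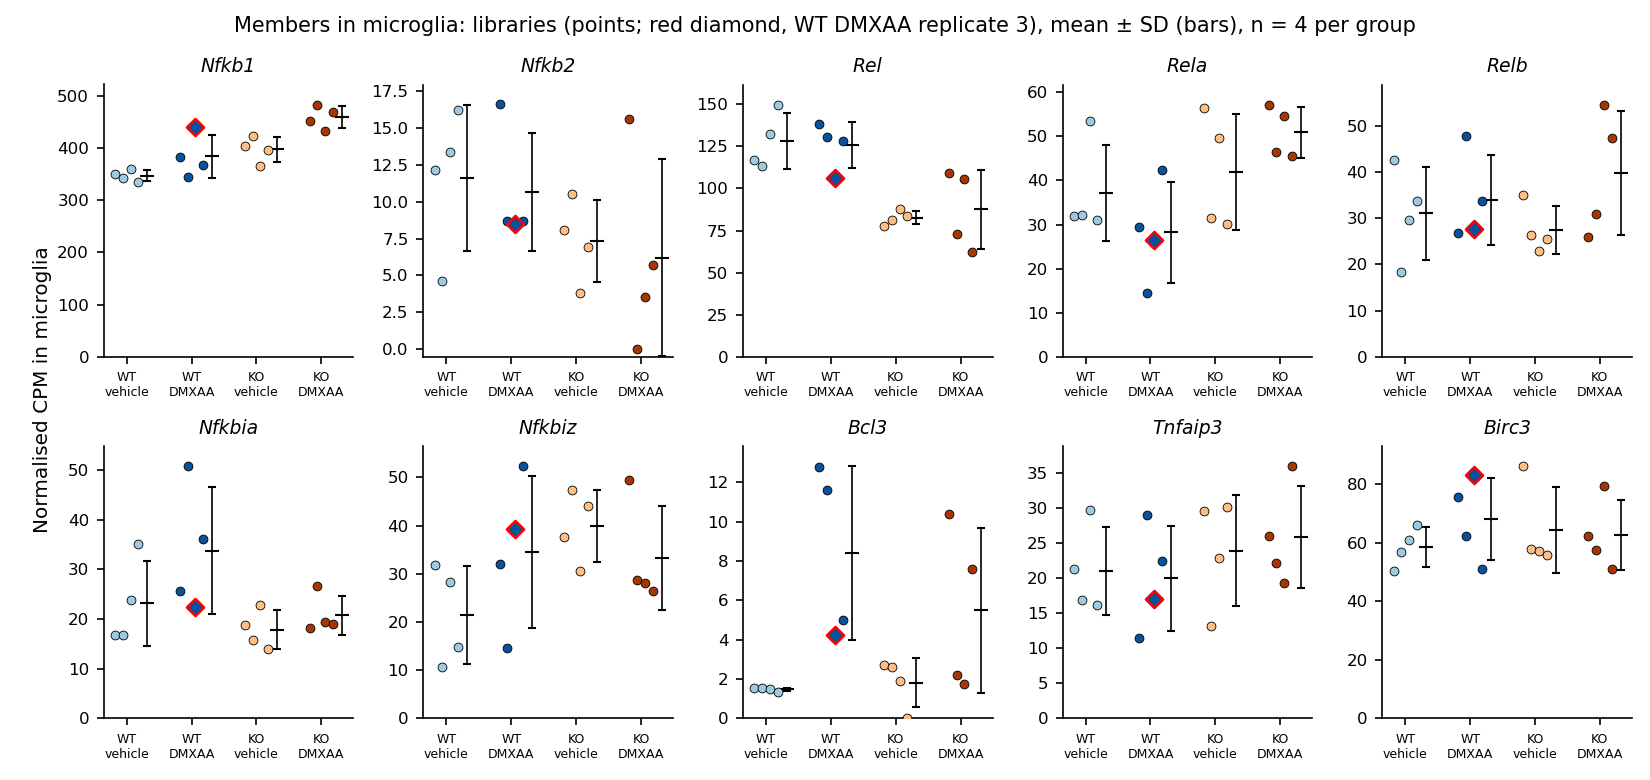
Normalised CPM of the 10 members in microglia, 1 point per library, with mean ± SD bars (n = 4 per group) and WT DMXAA replicate 3 as a red diamond. The 4 KO DMXAA points of *Nfkb1* (433 to 483) are above the 4 KO vehicle points (366 to 423), and the 4 WT DMXAA points of *Bcl3* are above the WT vehicle points, which are 1 UMI each. Of the 9005 genes tested in WT microglia, 5.99% had groups that did not overlap. *Bcl3* had too few UMIs there to be tested.

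**Figure D4:**
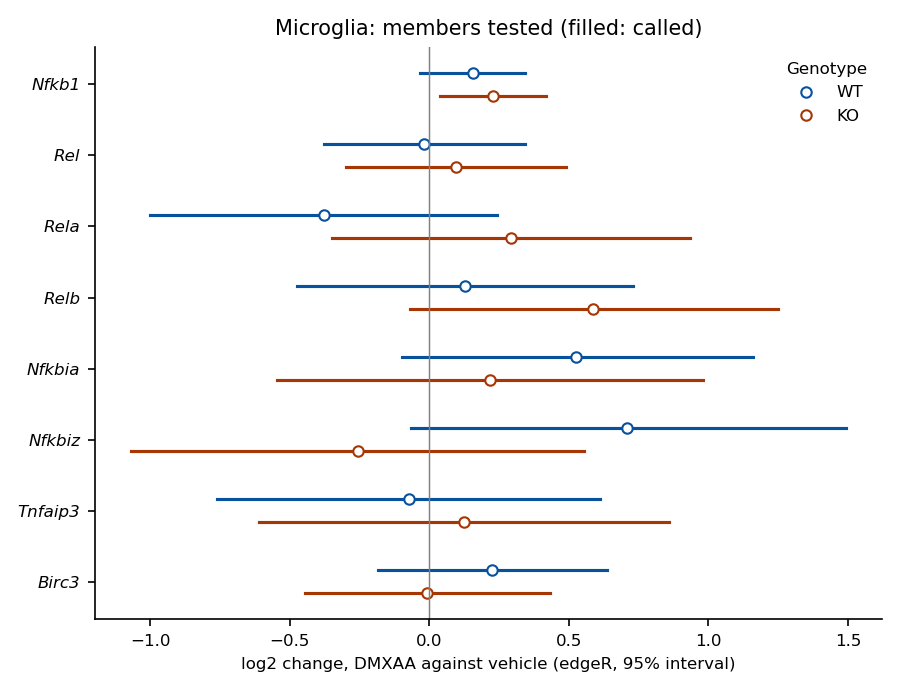
Log2 change of DMXAA against vehicle in microglia with its 95% interval (edgeR), for the 8 members tested there, in WT (blue) and KO (brown). A filled point would be called and no member has one, with WT changes from -0.38 (*Rela*) to 0.71 (*Nfkbiz*).

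Excitatory neurons held most of the *Nfkb2* UMIs, and there the gene turned on 1 library. *Nfkb2* was at 7.40, 5.86, 7.95 and 7.53 normalised CPM in WT vehicle and at 11.4, 10.4, 2.07 and 8.93 in WT DMXAA. The low value is WT DMXAA replicate 3, which lay within the KO range. In KO neurons *Nfkb2* was at 1.29, 0.923, 2.28 and 1.62 with vehicle and at 2.68, 2.20, 3.33 and 3.24 with DMXAA, and the groups overlapped by 1 library on each side. The log2 change was 0.21 ± 0.36 in WT and 0.87 ± 0.42 in KO (interval -0.02 to 1.76, unadjusted p = 0.054, adjusted p = 0.779 by edgeR). Without replicate 3 it was 0.54 ± 0.19 in WT (adjusted p = 0.22) and 0.86 ± 0.23 in KO (unadjusted p = 0.0015, adjusted p = 0.102), and the 3 WT DMXAA libraries were then above the 4 controls, as the groups of 14.5% of all genes were apart. The interaction without it was -0.32 ± 0.30. The treated libraries were thus higher on average in both genotypes, short of the threshold in each.

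*Rel* in WT excitatory neurons was at 8.22, 7.64, 7.98 and 9.24 with vehicle and at 7.26, 7.59, 6.88 and 7.44 with DMXAA, apart by a narrow margin, as were 1.97% of genes, with a log2 change of -0.16 ± 0.14 (adjusted p = 0.999 by edgeR). Over all nuclei, *Nfkb1* in WT also turned on replicate 3. It was at 86.2, 85.4, 85.2 and 88.4 with vehicle and at 79.7, 80.1, 141 and 77.8 with DMXAA. Without WT DMXAA replicate 3, the 141, each treated library was below each control, as the groups of 17.1% of genes were apart.

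Outside microglia and neurons, the members with an unadjusted p under 0.05 in WT were all lower. *Rel* in oligodendrocytes was at 14, 11.1, 13.7 and 12.8 with vehicle and at 9.92, 8.0, 7.21 and 11 with DMXAA, a log2 change of -0.49 ± 0.21 (unadjusted p = 0.032, adjusted p = 0.845 by edgeR). The groups did not overlap, though by a narrow margin, which held for 2.25% of all genes in that class. The lowest value is WT DMXAA replicate 3, which alone gave 78.1% of the 1627 nuclei of one of the 2 oligodendrocyte clusters. Without it the change was -0.41 ± 0.22 (unadjusted p = 0.0696, adjusted p = 0.345 by edgeR), and the groups were still apart, as for 13.6% of genes. *Rel* in border macrophages rested on 3 to 16 UMIs per library, at 194, 137, 184 and 99.7 with vehicle and 74.2, 90.7, 82.8 and 55.1 with DMXAA, a change of -1.06 ± 0.50 (adjusted p = 0.599), where 3.92% of genes were apart. In the choroid plexus, fitted on the libraries with at least 20 nuclei, *Nfkb1* was at 182, 152 and 163 with vehicle and 104, 133 and 141 with DMXAA, a change of -0.37 ± 0.16 (adjusted p = 0.418). *Rela* was also apart there, as were 15.5% of genes, with a change of -0.55 ± 0.37. *Nfkbia* in oligodendrocytes was at 12, 17.1, 20.6 and 34.9 with vehicle and at 22.4, 46.3, 9.62 and 47.5 with DMXAA. Its change was 0.60 ± 0.45, and 0.91 ± 0.33 without WT DMXAA replicate 3, the lowest of the 8 (unadjusted p = 0.012, adjusted p = 0.15).

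In KO, the lowest unadjusted p belonged to *Nfkbiz* in oligodendrocyte precursors. The libraries were at 22.2, 16.7, 22.8 and 16.9 normalised CPM with vehicle and at 7.69, 7.26, 15.3 and 7.13 with DMXAA, each treated library below each control, on 6 to 20 UMIs per library. The log2 change was -1.02 ± 0.34 (unadjusted p = 0.0058, adjusted p = 0.889 by edgeR), and 4.86% of all genes were apart in that comparison. In WT precursors the change was 0.07 ± 0.34, with an interaction of 1.10 ± 0.48 (adjusted p = 0.795). *Nfkbiz* was also lower in each treated KO library in astrocytes, at 18.3, 20.7, 18.5 and 19.8 with vehicle and 11.4, 15.7, 15.2 and 17.4 with DMXAA (log2 change -0.37 ± 0.20), where 7.43% of genes were apart. *Nfkb1* in KO endothelial nuclei was at 253, 181, 185 and 163 with vehicle and at 309, 309 and 245 in the 3 DMXAA libraries fitted, 12 to 27 UMIs each, which overlapped by 1 library, and the change was 0.64 ± 0.28 (unadjusted p = 0.035, adjusted p = 0.989). Over all nuclei *Birc3* was at 3.69, 4.28, 3.66 and 3.57 with vehicle and at 2.80, 3.50, 3.49 and 3.33 with DMXAA in KO (log2 change -0.21 ± 0.15), apart like 8.92% of genes. In such sums over all nuclei, fewer nuclei of a type and less RNA per nucleus cannot be told apart.

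The genotypes differed at rest, in members less often than in genes at large. KO vehicle against WT vehicle called 28.4% of all tests in the named classes, and 9 of 58 member tests (15.5%), 3 higher and 6 lower. Without WT DMXAA replicate 3 the calls were 14 of 56, 7 higher and 7 lower, against 39% of all tests. The calls gained were *Nfkb1* in oligodendrocytes and their precursors and *Nfkbiz* in astrocytes and excitatory neurons, all higher, and *Nfkb2* in astrocytes, lower. Without WT vehicle replicate 4 or KO vehicle replicate 1 there were 5 calls, 2 higher and 3 lower, of 53 and 54 tests, against 22.2% and 21.2% of all tests. Without scaling factors there were 10, 0 higher and 10 lower, against 33% of all tests. Over all nuclei 3 of the 10 members were called, against 48.2% of all genes. The contrast cannot be told apart from age and cohort, and the handling list, immediate early genes that respond to dissection and stress, differed as well. Of its 7 genes, 6 were tested in classes, where 16 of 27 tests were called, all lower (median log2 difference -1.32). Over all nuclei 5 of the 7 were called lower and 1 higher. Their part in the member differences was not tested. WT DMXAA replicate 3, labelled WT, lay in the KO range for 74.5% of the genes that set KO apart from the other WT libraries in excitatory neurons, as given above. How it was prepared is not given in the sources used here, so genotype cannot be told apart from preparation either.

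*Nfkb1* in excitatory neurons was at 68.1, 72.3, 65.2 and 73.5 normalised CPM in WT vehicle and at 106, 117, 104 and 98.0 in KO vehicle, so that the groups did not overlap, as for 52% of genes. The WT DMXAA libraries were at 62.7, 66.2, 121 and 61.8, and replicate 3 was above all KO libraries. The log2 difference was 0.63 ± 0.17 (adjusted p = 0.0066 by edgeR) where 49.1% of genes were called. It was 0.53 in inhibitory neurons (39% called), 0.30 in astrocytes (29.3% called) and 0.53 over all nuclei. The size of the differences depends on the scaling. Without scaling factors the median of all genes moved by -0.47 in excitatory neurons and -0.34 over all nuclei, and *Nfkb1* was 0.15 to 0.16 higher in the 3 classes, called in none of them. Over all nuclei it was 0.19 higher and still called (adjusted p = 0.0487 by edgeR). The call in astrocytes (adjusted p = 0.0489) was lost in 14 of 23 alternatives, among them leaving out any 1 of the 8 vehicle libraries, WT DMXAA replicate 2 or KO DMXAA replicate 2, 3 or 4, with adjusted p up to 0.212.

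*Nfkb2* was lower in KO vehicle neurons, at 0.923 to 2.28 against 5.86 to 7.95, a log2 difference of -2.19 ± 0.41 (adjusted p = 0.0013 by edgeR). It was lower by -1.60 in inhibitory neurons and by -1.62 in oligodendrocytes, where 29.4% of genes were called. *Rel* was lower in microglia, at 78.0 to 87.7 against 113 to 149.8 normalised CPM, a log2 difference of -0.65 ± 0.18 (adjusted p = 0.0277) where 11.8% of genes were called. It was also lower in excitatory neurons, by -0.43 (libraries at 4.93, 6.81, 6.59 and 5.83 against 8.22, 7.64, 7.98 and 9.24), and in oligodendrocytes, by -0.64. Without scaling factors the difference of *Rel* in excitatory neurons was -0.90. *Nfkb2* kept its calls in these 3 classes in 23 of 23 alternatives. *Rel* lost its call in 6 of 23 in microglia (adjusted p up to 0.0787), among them without WT vehicle replicate 3 or 4 or KO vehicle replicate 1, 2 or 4. It was lost in 3 of 23 in excitatory neurons (up to 0.0607), among them without WT vehicle replicate 4 or KO vehicle replicate 1. In oligodendrocytes it was lost in 9 of 23 (up to 0.11), among them without WT vehicle replicate 1, 3 or 4 or KO vehicle replicate 1, 2 or 3.

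**Figure D5:**
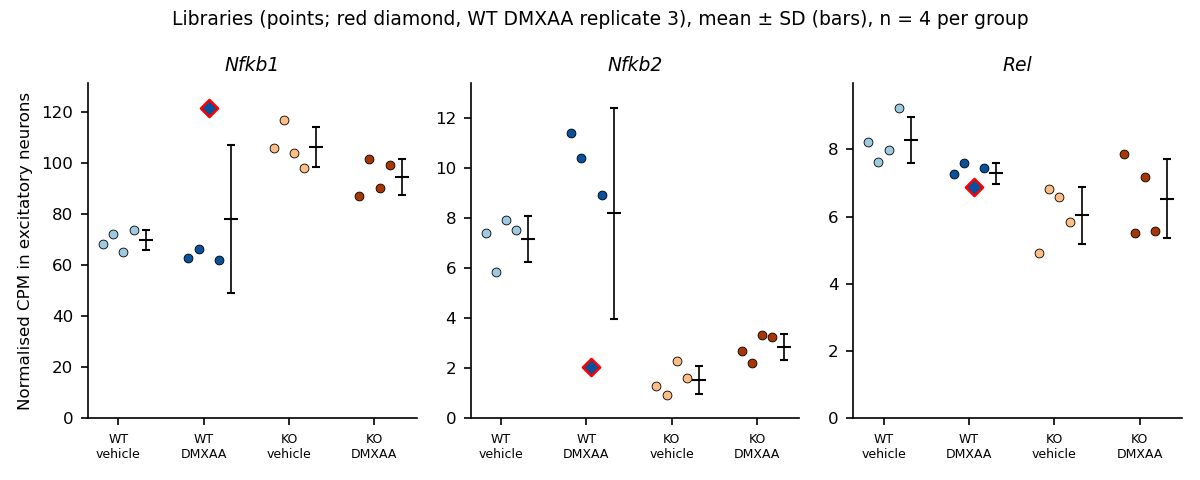
Normalised CPM of *Nfkb1*, *Nfkb2* and *Rel* in excitatory neurons, 1 point per library, with mean ± SD bars (n = 4 per group) and WT DMXAA replicate 3 as a red diamond. For *Nfkb1* (121) and *Nfkb2* (2.07) the diamond lies away from the other WT DMXAA points, 61.8 to 66.2 and 8.93 to 11.4.

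The wider pathway was described by 69 further genes, sorted into 18 receptors and adaptors, 10 kinases, 12 IkB proteins and inhibitors and 29 targets. Of these, 51 were tested in at least 1 class. In WT 0 of 272 class tests were called, against 0.312% of all tests, with 19 at an unadjusted p under 0.05 by edgeR (6.99%, against 6.14% of all genes). In KO 0 of 287 were called, against 0% of all tests, with 19 under 0.05 (6.62%, against 5.18%). Over all nuclei 2 of 56 were called in WT, both targets and both higher, *Lcn2* and *Plaur*, against 0.487% of 20118 genes. In KO 0 were called, as were 0% of all genes. None of the 17 receptors and adaptors tested, such as the interleukin-1 receptor gene *Il1r1*, nor of the 10 kinases or 11 inhibitors, was called after DMXAA in either genotype with all libraries kept. Without WT DMXAA replicate 3, 5 of 250 class tests were called in WT, all higher, against 1.75% of all tests. Of the 250, 37 had an unadjusted p under 0.05 by edgeR, against 13.8% of all tests. Over all nuclei 4 of 58 were called in WT, all higher, and the share of all genes there is not given here. By edgeR 0 of 272 class tests were called in KO, with 32 at an unadjusted p under 0.05, against 12.3% of all tests. The interaction called 0 of 237, with 18 under 0.05, against 7.01% of all tests. *Lcn2* and *Plaur* were called over all nuclei, and *Lcn2* also in border macrophages. There it had 7, 30 and 13 UMIs in WT DMXAA replicates 1, 2 and 4 and 0 in each vehicle library, so the size of the change cannot be estimated. WT DMXAA replicate 3 had 0 as well. With that library kept, no pathway gene was called in border macrophages (lowest adjusted p 0.292 by edgeR). The receptor gene *Tlr3*, a sensor of double-stranded RNA, was called in microglia (log2 change 0.97 ± 0.20, adjusted p = 0.00192 by edgeR) and over all nuclei (0.62 ± 0.11). In WT microglia 8.64% of all genes were called in that fit. The adaptor gene *Traf6* was called in oligodendrocytes (0.58 ± 0.12). The target *Csf1*, a macrophage growth factor gene, was called in microglia (1.80 ± 0.49), in oligodendrocytes (0.61 ± 0.12) and over all nuclei (0.51 ± 0.12). No kinase or inhibitor was among them.

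*Lcn2*, which encodes the iron-siderophore binder lipocalin-2, had 0, 1, 2 and 0 UMIs in the WT vehicle libraries and 49, 51, 85 and 19 in the WT DMXAA libraries. The log2 change was 5.87 ± 0.68 (adjusted p = 0.000338 by edgeR), and the UMI ratio was 66.3 with a counting interval of 22.4 to 324. Every library outside WT DMXAA held at most 5 UMIs, so the gene passed the filter on low counts only through the group where it was high. Its p-value is therefore no separate support for the rise. In KO it had 0, 1, 0 and 1 UMIs with vehicle and 5, 3, 4 and 1 with DMXAA, 2 against 13 in sum. That is a ratio of 6.59 with an interval of 1.49 to 60.1. Both intervals cover counting error only and not the spread between mice. The KO groups overlapped, at 0.030 normalised CPM in DMXAA replicate 4 against 0.035 in vehicle replicate 2. By edgeR no pathway gene, *Lcn2* included, was called in KO over all nuclei (lowest adjusted p 0.796). The interaction for *Lcn2* had an adjusted p of 0.766, so the genotypes were not shown to differ. Its WT DMXAA UMIs came from 60 in microglia, of which 57 lay in replicate 3, 50 in border macrophages, 30 of them in replicate 2, 30 in endothelial nuclei, 27 of them from the 8 nuclei of replicate 1, and 21 in excitatory neurons, and in KO DMXAA 10 of the 13 were in border macrophages. Neutrophil genes were counted beside it: over all nuclei *S100a9* had 9, 25, 1 and 2 UMIs in WT vehicle and 69, 116, 636 and 65 in WT DMXAA. In KO it had 0, 16, 1 and 0 with vehicle and 1, 55, 9 and 2 with DMXAA. Their part in the *Lcn2* counts was not tested.

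*Plaur*, the urokinase receptor, had 7, 9, 10 and 12 UMIs in WT vehicle and 19, 30, 35 and 20 in WT DMXAA, groups that did not overlap, as for 2.71% of genes over all nuclei (17.1% without WT DMXAA replicate 3). The log2 change was 1.48 ± 0.27 (adjusted p = 0.0137 by edgeR). The call was lost in 4 of 25 alternatives (adjusted p up to 0.192), among them without WT vehicle replicate 1, 2 or 3. The KO libraries held 36 UMIs in vehicle and 29 after DMXAA, for a ratio of 0.817 (0.483 to 1.37), and the interaction had an adjusted p of 0.149. Of its 104 WT DMXAA UMIs, 56 were in microglia, where the vehicle libraries had 18. The leukocyte marker *Plac8* had 2, 3, 5 and 4 UMIs over all nuclei in WT vehicle and 31, 33, 45 and 11 in WT DMXAA. In the same list, *Ly6c2* had 0, 0, 1 and 1 UMIs in WT vehicle and 4, 14, 19 and 2 in WT DMXAA. *S100a8* had 3, 7, 2 and 4 against 33, 31, 322 and 30, and *S100a9* was higher as given above. *Itgal* and *Skap1* overlapped between the groups. Others of the list did not rise. *Ccr2* had 18, 19, 15 and 16 UMIs in WT vehicle and 8, 9, 9 and 0 in WT DMXAA. *Cd3e* had 4, 1, 3 and 0 against 1, 2, 1 and 1. The part of leukocytes in the *Plaur* counts was not tested.

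Between the genotypes at rest, 64 of 273 class tests of the pathway list were called, 38 higher and 26 lower in KO vehicle, 23.4% against 28.4% of all genes. The largest differences were in the targets *Ier3* (-2.77 in excitatory neurons), an early response gene, *Junb* (-2.31 in oligodendrocytes), an AP-1 subunit, and *Gadd45b* (-1.86 over all nuclei). *Cd40*, a TNF receptor family member, was higher (1.86 over all nuclei), as were *Bcl2l1*, an inhibitor of apoptosis (1.25 in oligodendrocyte precursors), and *Traf3*, a brake on the noncanonical branch that makes p52 (1.19 in excitatory neurons). *Nfkbib*, encoding IkB beta, was lower (-1.20 in inhibitory neurons), as was *Saa3*, an acute-phase gene (-1.37 over all nuclei). As for the members, these differences cannot be told apart from age, cohort and preparation, and the handling list was lower in the same contrast in 16 of 27 class tests. Its part in them was not tested.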

How the data were processed

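Single nuclei of hippocampus from 16 mice were profiled by droplet RNA-seq of 3' ends. The authors deposited 1 matrix of raw UMI counts per library, not normalized, for 32285 genes on mm10. The submitters' processing notes name Cell Ranger 3.1.0 and Seurat 3.0, whereas the file headers name Cell Ranger 6.1.2. Reads on pre-mRNA were counted per the methods of the study, so long introns add UMIs. Strand handling in counting is not given in the sources used here.

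Nuclei were kept with 200 to 4000 genes and at most 5% mitochondrial UMIs. Likely doublets, scored against artificial pairs of nuclei, were then dropped. Their share was set to grow by 0.8% per 1000 barcodes of a library, and was 6.3% to 9.96% of the nuclei within those limits. This left 108878 of 155084 barcodes. Clusters (scanpy 1.11.5, 2000 variable genes, 30 principal components, 20 neighbours, Leiden resolution 0.5) were built without 97 listed genes, and 25 of 30 were named from marker lists. A class entered a test where a library had at least 20 nuclei and each group kept 3 libraries. Summed counts were tested two-sided with the quasi-likelihood F test of edgeR 4.0.16 (R 4.3.3), with TMM factors and the filter of filterByExpr, over 4 groups, with Benjamini-Hochberg adjustment over all genes of a class and contrast. Log2 changes are those of edgeR, drawn toward 0 by a small added count. Their SE were derived from the F statistic and the change without that count, on which the 95% intervals are centred. Errors of levels are SD. Counting intervals of ratios are 95% exact intervals that condition on the sum. These counting intervals cover counting error only. The study tested single nuclei, and summing per animal was chosen here because nuclei of 1 animal are not replicates.

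All 10 members are named where they had over 30 UMIs. Of the pathway list, genes called in any class and contrast are named, up to 20, the largest log2 change first. For each member reaching 10 CPM in a class, the 3 genes most like it are named. Some genes these rules name are not reported here. Values of *Birc3* and *Nfkb1* over all nuclei, *S100a8*, *S100a9* and *Ly6c2* were chosen after they were seen. The members, lists and tests were chosen with earlier results of these data known. The count test was tested on simulated data. Alternatives were RLE factors, no scaling factors, DESeq2 1.42.0, limma-voom (limma 3.58.1), no filter, 1 genotype alone, doublets kept, at least 500 genes, all barcodes, and leaving out each library.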

Additional observations from a re-analysis of the deposited data

Results flagged for a closer look

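Dixon's test was applied to 84 of the groups of 4 libraries whose values are given. In 9 of them the gap of a library to the nearest other exceeded the 95% critical value, and chance gives about 1 in 20. In normalised CPM these were *Birc3* in microglia of KO vehicle replicate 1 (86.1), *Nfkb1* of WT DMXAA replicate 3 over all nuclei (141) and in excitatory neurons (121), *Nfkbia* in microglia of KO DMXAA replicate 2 (26.6), and *Nfkbiz* in microglia of KO DMXAA replicate 1 (49.4). The others were *Nfkbiz* in oligodendrocyte precursors of KO DMXAA replicate 3 (15.3), *Plaur* over all nuclei of KO DMXAA replicate 3 (0.285), *Rel* in border macrophages of KO vehicle replicate 4 (37.4) and *Rela* in microglia of WT vehicle replicate 3 (53.5). Of these 9, only the *Nfkb1* values belong to the library that stood apart across genes. Values of *S100a9*, *Plac8* and some others given above were not among the 84. *S100a9* over all nuclei was also highest in that library, at 636 UMIs.

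For 0 members did the interaction of genotype and DMXAA pass the threshold of edgeR.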

How the results depend on the processing

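No member was called after DMXAA in WT, KO or the interaction under any of the 25 alternatives, the 16 that leave out 1 library included. The use of no scaling factors and all alternatives for the genotype contrast were chosen after seeing the data. For the named log2 changes, 600 alternative values kept their direction, 40 of them losing the threshold. Named changes not called in the main fit, such as *Nfkb1* in KO microglia, are among the 600 and had no call to lose. Calls of the pathway list in WT numbered 2, 4 with no filter on low counts, 1 with 1 genotype alone and 1 to 9 when leaving out 1 library (9 without WT DMXAA replicate 3, 1 without WT vehicle replicate 1, 2 or 3, when *Plaur* was lost). Without scaling factors the split of all called genes in excitatory neurons between the genotypes at rest moved from 4088 higher and 4541 lower to 1492 and 9767. No paired analysis was possible because replicate numbers only name the libraries. Depth limits *Bcl3*, which passed the filter in 0 classes, *Tnfaip3* in 2 and *Nfkb2* in 4, and every member in endothelial, mural and border macrophage nuclei.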

Other observations

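*Bcl3* was also counted in border macrophages, with 6 UMIs in WT vehicle, 4 in WT DMXAA, 5 in KO vehicle and 2 in KO DMXAA. Over all nuclei *Bcl3* had 52 and 77 UMIs in WT and 44 and 52 in KO, with log2 changes of 0.60 ± 0.41 (WT) and 0.18 ± 0.43 (KO).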
